A study of Homo sapiens with 17 samples.

Results

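The response of Jurkat cells to 25 µg/ml ILT3.Fc after 6 h was read from 4 of the 17 RNA-seq libraries of the series, defined by their labelled dose and time. Both groups were Jurkat, a human leukaemic T cell line, grown in RPMI-1640 with serum, L-glutamine and gentamicin. One group of 2 libraries received 25 µg/ml ILT3.Fc for 6 h, and the other group of 2 received 0 µg/ml for 6 h. ILT3.Fc carries the outer domains of ILT3, an inhibitory receptor encoded by LILRB4, fused to the Fc piece of an antibody. Because the control was the absence of the protein, the ILT3 part and the Fc part cannot be told apart, and all results concern 1 leukaemic line. The other libraries held 12.5 µg/ml at the same time and all 3 doses at 12 and 24 h. The series asked which master regulator lies behind the perturbation by ILT3.Fc. Replicate 1 of each dose at 6 h was sequenced in lane 4 and replicate 2 in lane 5. The labels state that samples were duplicated but not that they were separate cultures, so every p-value here is set against a spread between libraries that may be technical. In such bulk RNA, fewer cells of a kind and less RNA per cell cannot be told apart.

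Expression was given as FPKM, the fragments counted on a gene divided by its length and by the library's total. Of 25548 gene symbols, 12034 (47.1%) had a mean FPKM of at least 1 over these 4 libraries and were tested on log2(FPKM + 1), where fold changes of weakly expressed genes are understated. Read counts cannot be had from FPKM, so absolute depth is unknown; relative depth, recovered from the smallest steps of low values, was 0.968 and 0.712 in the untreated libraries and 1 and 0.824 in the treated ones. Duplicates correlated across genes at 0.9834 (untreated) and 0.9847 (treated). All 14 markers of the T cell line were above the filter, with a summed FPKM of 1862 and 1893 without the protein and 1840 and 1875 with it. All 8 markers of NK cells and all 8 of epithelial cells and fibroblasts stayed below an FPKM of 1 in all 4 libraries, as did 5 of 7 for B cells, 9 of 10 for myeloid cells and 5 of 8 for erythroid cells. LILRB4 itself was listed at 0 in all 17 libraries.

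ILT3 carries inhibitory signals in antigen-presenting cells, and its soluble form is known for dampening T cell responses. Several gene programmes that a dividing T cell line runs were followed here. Mitotic genes are switched on together late in the cell cycle, through promoter elements read by the DREAM and FOXM1 complexes. Chaperones of the endoplasmic reticulum (ER) fold secreted and membrane proteins and are induced by the unfolded protein response. Cholesterol synthesis enzymes are induced together by SREBP transcription factors when membrane sterol falls.

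At 25 µg/ml for 6 h, few transcripts moved and the changes were small. At an adjusted p under 0.05 in limma, 7 genes rose (0.0582% of those tested) and 23 fell (0.191%), with Benjamini-Hochberg adjustment over all genes tested and a median size of 0.32 on the log2 scale. Among those that rose were PRMT10, an arginine methyltransferase, and HMGCS1, an enzyme of cholesterol synthesis. Those that fell included the splicing subunit SF3B3, the mitotic genes PLK1, HMMR and KIF20A, the ER chaperone HSP90B1 and all 3 genes of the SAFB family. At an unadjusted p under 0.05 there were 452 genes with higher values (3.76%) and 797 with lower ones (6.62%). These shares are the background for the unadjusted counts of every list below. The calls rested on all 4 libraries. Leaving out any 1 of them lost most of the 30 calls and brought in other genes. Only SF3B3 and PRMT10 were called in every case. With each library centred on its median 12 calls were left, 4 higher and 8 lower; SF3B3, PRMT10 and HMGCS1 were among them, and PLK1, HMMR, KIF20A and HSP90B1 were not (adjusted p = 0.0508, 0.051, 0.051 and 0.0881 in limma). Replicate 1 of 12.5 µg/ml at 6 h enters the shared estimate of the spread. It came from the group whose duplicates differed most (a median absolute deviation of 0.194 against 0.076 and 0.0854 in the groups compared). Without it that group holds 1 library and adds nothing to the spread. More genes were then called, with every earlier call among them. Leaving out replicate 2 instead was not run here. It too would leave that group with 1 library and no spread, so it could not tell the duplicates apart. Which duplicate lies behind this was not tested.

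**Figure D1:**
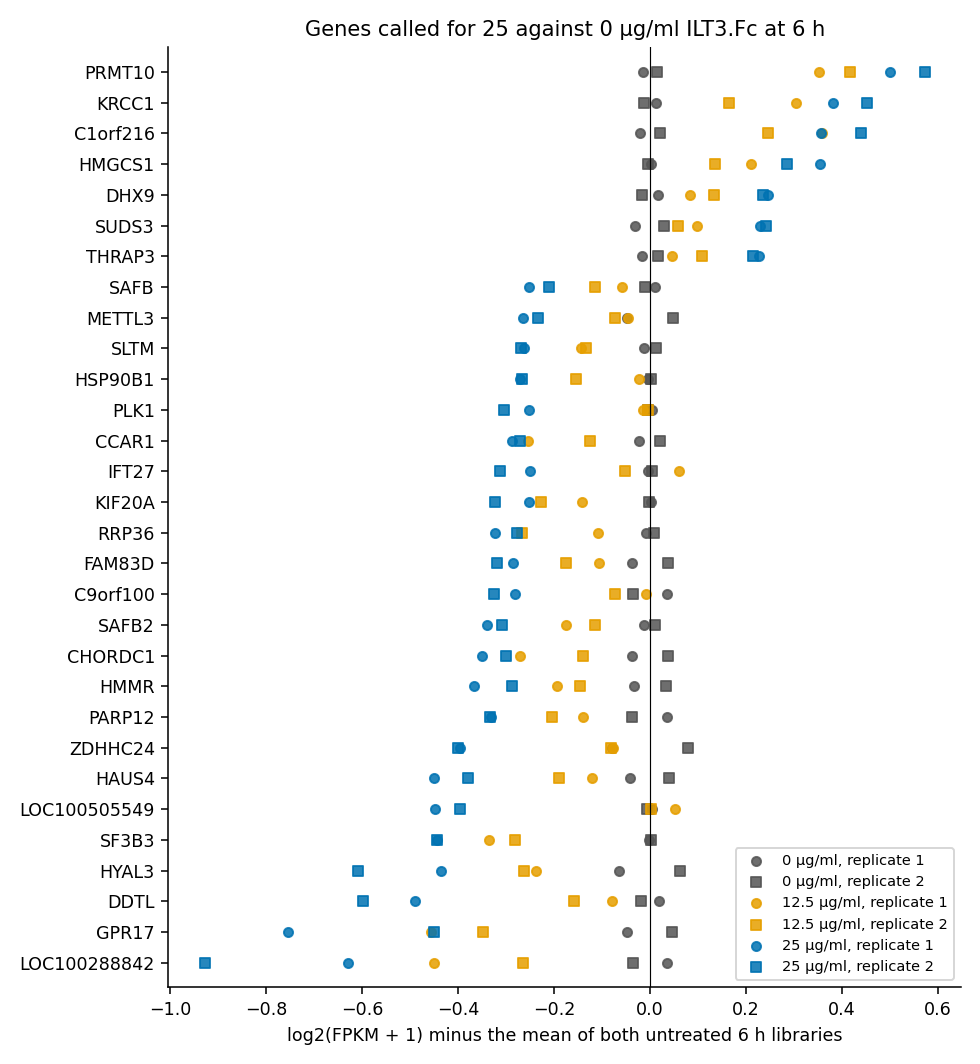
The 30 genes called for 25 against 0 µg/ml at 6 h, ordered by effect. The x axis gives log2(FPKM + 1) of each 6 h library minus the mean of both untreated libraries; colours mark the dose and symbols the replicate. SF3B3 and PRMT10 stand away from the untreated libraries at both doses, while PLK1 at 12.5 µg/ml sits on them.

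Promoter sequences of the genes on which the following results turn are shown first, since these gene groups share known promoter elements. They were matched by symbol in RefSeq's promoter table (GRCh38.p14), which gives 250 bases before and 50 after each start; only bases before the start are printed, 5′ to 3′ on the gene's strand. Capitals mark a match to the named motif on either strand. PLK1 and HMMR were called, and CDC20 belongs to the same mitotic group; their capitals mark the cell cycle genes homology region (CHR), TTTGAA.
PLK1, chr16:23678769-23678888, plus strand: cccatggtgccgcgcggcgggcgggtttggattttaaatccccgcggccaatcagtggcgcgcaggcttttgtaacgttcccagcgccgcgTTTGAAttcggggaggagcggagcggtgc
HMMR, chr5:163460512-163460631, plus strand: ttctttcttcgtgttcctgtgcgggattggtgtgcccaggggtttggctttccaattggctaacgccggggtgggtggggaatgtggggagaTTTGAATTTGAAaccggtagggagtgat
CDC20, chr1:43358861-43358980, plus strand: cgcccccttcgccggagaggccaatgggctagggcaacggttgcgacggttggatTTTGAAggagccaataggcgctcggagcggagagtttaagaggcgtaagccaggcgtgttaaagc
The CHR begins 29 bases before the start in PLK1 and 65 before it in CDC20. HMMR has a tandem pair that begins at 28 and 22 bases before the start. The ER chaperone genes HSP90B1 and HSPA5 are shown for the ER stress response element (ERSE), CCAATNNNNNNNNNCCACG, which contains a CCAAT box.
HSP90B1, chr12:103930210-103930349, plus strand: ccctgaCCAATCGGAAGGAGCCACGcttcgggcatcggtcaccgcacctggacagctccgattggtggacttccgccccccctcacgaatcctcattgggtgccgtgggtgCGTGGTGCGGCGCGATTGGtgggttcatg
HSPA5, chr9:125241344-125241463, minus strand: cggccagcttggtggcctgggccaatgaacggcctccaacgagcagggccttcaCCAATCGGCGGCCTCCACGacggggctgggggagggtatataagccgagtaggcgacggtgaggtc
HSP90B1 holds the element once on each strand, and HSPA5 once. HMGCS1 is shown for the CCAAT box, bound by NF-Y, which here matches on the opposite strand (ATTGG).
HMGCS1, chr5:43313473-43313612, minus strand: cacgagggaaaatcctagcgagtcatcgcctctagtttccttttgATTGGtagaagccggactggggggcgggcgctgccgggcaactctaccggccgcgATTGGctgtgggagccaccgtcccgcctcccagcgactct
These matches are descriptions of letters in a window, not measured binding.

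Regulators of mitosis had lower levels in the treated cells in most cases. The 5 lists followed were mitotic kinases, kinesins, spindle assembly proteins, cyclins with regulators of the anaphase-promoting complex, and centromere and kinetochore proteins. Of their 80 members, all tested, 3 fell (PLK1, HMMR and KIF20A) and none rose at an adjusted p under 0.05 in limma. In 62 of the 80 both treated libraries lay below both untreated ones and in 2 both lay above, against 26.1% and 23.4% of all genes tested. At an unadjusted p under 0.05 there were 27 lower and 0 higher. After the GC and length correction the kinesins had 3 lower calls, the cyclins 2, and the kinase, spindle and centromere lists 1 each, with 0 higher in these 5 lists. Over all 10213 genes with that correction, 63 were called lower and 29 higher. The median over the 80 was -0.082 on the log2 scale, against -0.005 over all genes tested, and within lanes it was -0.094 in lane 4 and -0.082 in lane 5.

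PLK1, the polo-like kinase that drives entry into mitosis and bipolar spindle assembly, had an FPKM of 98.0 and 97.4 in the untreated libraries and 81.9 and 78.9 in the treated ones. It fell by 17.7% (log2 difference -0.28, SE 0.05, adjusted p = 0.0425 in limma), and the groups did not overlap. At 12.5 µg/ml it was at 96.8 and 97.5, level with the untreated libraries. HMMR, a spindle protein that binds microtubules and helps to focus spindle poles, had an FPKM of 52.5 and 55.02 untreated against 41.5 and 43.9 treated. Its fall was 20.6% (log2 difference -0.33, SE 0.06, adjusted p = 0.0458 in limma), with 46.9 and 48.5 at the lower dose. KIF20A, the kinesin that carries regulators to the central spindle before cells separate, stood at 36.8 and 36.7 untreated, both above 30.7 and 29.2 treated. Its log2 difference was -0.29 (SE 0.04, adjusted p = 0.038 in limma).

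A pair of further called genes act on the spindle but were in none of the lists and were grouped after their values were seen. HAUS4, a subunit of the augmin complex that branches spindle microtubules, had an FPKM of 44.4 and 47.0 untreated and 33.2 and 34.9 treated. It fell by 25.5% (log2 difference -0.41, adjusted p = 0.0169 in limma). FAM83D, which places a kinase on the spindle, had an FPKM of 19.1 and 20.2 untreated and 15.9 and 15.5 treated. It fell by 19.9% (log2 difference -0.30, adjusted p = 0.0417 in limma).

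The remaining mitotic genes had smaller differences that did not pass the test. The cyclin list, with 20 members, had all 20 log2 differences below 0 and a median of -0.097. CDC20, the activator of the anaphase-promoting complex, was at 146 and 141 FPKM untreated and 125 and 119 treated (log2 difference -0.23, adjusted p = 0.124 in limma). UBE2C, the ubiquitin-conjugating enzyme that works with that complex, was at 133 and 125 untreated and 110 and 108 treated (-0.24, adjusted p = 0.264 in limma). Both had treated libraries below untreated ones. For CENPA, the histone that marks centromeres, the untreated libraries were at 38.7 and 37.6 FPKM and the treated ones at 32.8 and 33.7 (-0.19, adjusted p = 0.124 in limma). Among the kinases, AURKB, the kinase of the chromosomal passenger complex, was at 72.9 and 73.6 untreated and 67.0 and 60.4 treated (-0.20, adjusted p = 0.307 in limma; -0.128 without treated replicate 2). BUB1 and PLK4, kinases of the spindle checkpoint and of centriole duplication, had overlapping groups. List medians ran from -0.068 for spindle proteins to -0.097 for the cyclins.

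Transcription factors behind this programme and replication genes were followed in lists of their own, and none of them passed the test. The list of FOXM1, B-MYB and DREAM regulators had 0 calls and 0 genes at an unadjusted p under 0.05 among 12 tested in limma, and its median was 0.018, with 9 of the 12 above 0. MYBL2, which encodes B-MYB, was at 132 and 126 FPKM untreated and 124 and 122 treated (log2 difference -0.07, adjusted p = 0.704 in limma). That difference was -0.00686 after the GC and length correction, and -0.0331 and -0.102 without untreated replicate 1 and 2. The list of replication and S phase genes had 0 calls among 34 in limma, 5 with lower and 0 with higher values at an unadjusted p under 0.05, and a median of -0.034. Of these 34 genes, 27 were below 0 and 7 above. Both treated libraries lay below both untreated ones in 14 and above them in 4, against 26.1% and 23.4% of all genes tested. LIG1, the DNA ligase that joins Okazaki fragments, was at 60.97 and 59.88 untreated and 53.1 and 54.2 treated (-0.17, adjusted p = 0.21 in limma). No test was made of one list against another.

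Of the 80 mitotic genes, 70 were found in the promoter table, and 46 of them (65.7%) had TTTGAA on either strand in at least 1 window. The share was 13.5% among the 9018 tested genes found there and 18.2% among all 27305 genes of the table. Replication genes had it in 1 of 30 (3.33%), and the 16 fallen genes with a window in 3 (18.8%). CCAAT was present in 55 of the 70 (78.6%), against 43.8% of the tested genes. The lists were chosen for their role in mitosis, not for this element, and the share describes the lists rather than the response.

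**Figure D2:**
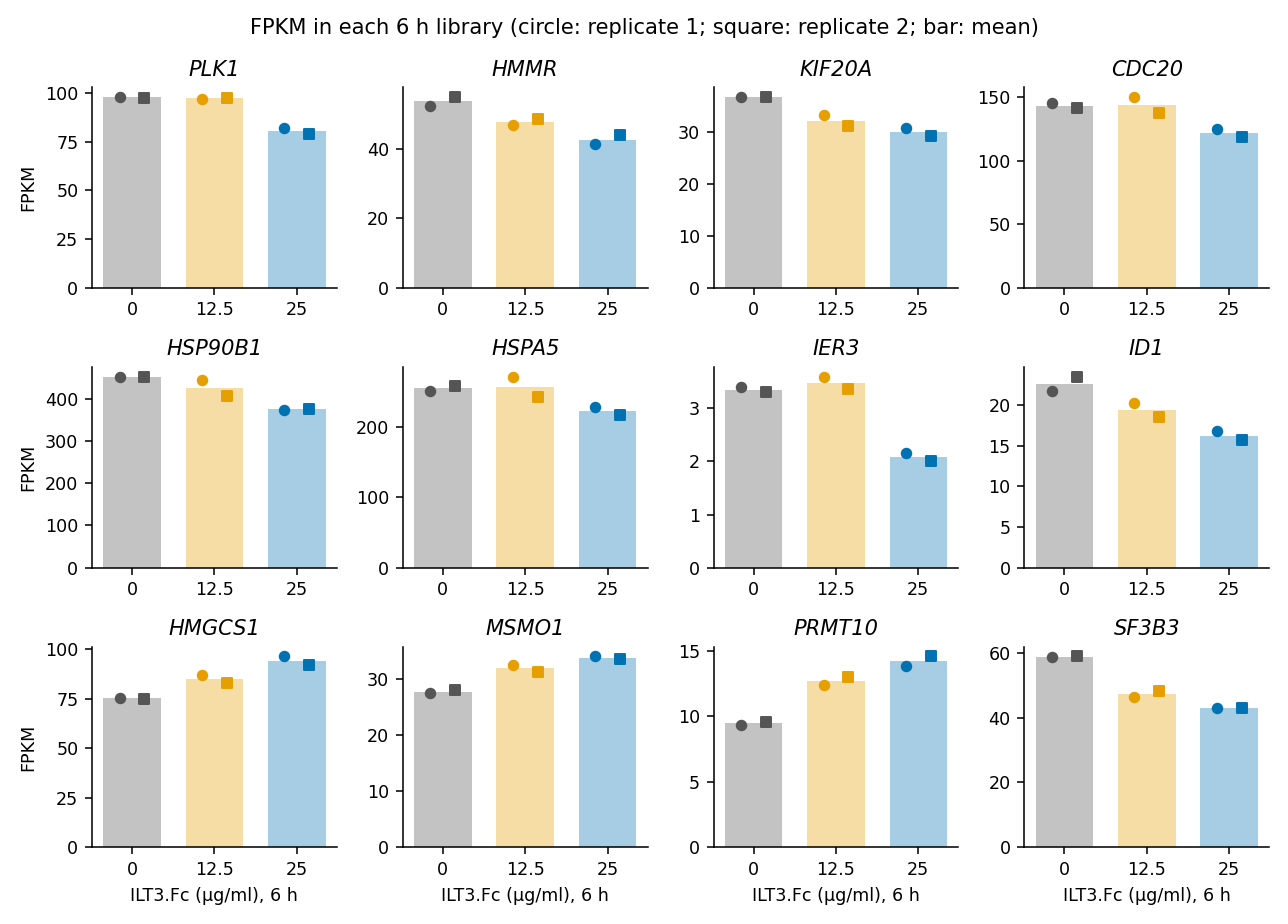
FPKM of 12 genes in each of the 6 h libraries by ILT3.Fc dose in µg/ml; bars are means of 2 libraries, circles replicate 1 and squares replicate 2. PLK1, CDC20, HSPA5 and IER3 are lower at 25 µg/ml than at both other doses, while HMGCS1, MSMO1, PRMT10 and SF3B3 are already shifted at 12.5 µg/ml.

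Folding factors of the ER were mostly lower after treatment. Among 22 tested genes of the list for ER chaperones and the unfolded protein response, 1 fell (HSP90B1) and 0 rose in limma. Both treated libraries lay below both untreated ones in 14 genes and above them in 2, against 26.1% and 23.4% of all genes tested. At an unadjusted p under 0.05 there were 6 lower and 0 higher. After the GC and length correction 1 of 21 was called lower and 0 higher, against 63 lower and 29 higher of 10213 genes. The median was -0.068, with -0.062 in lane 4 and -0.113 in lane 5. HSP90B1, the ER form of HSP90 that folds receptors and integrins, was at 452 and 454 FPKM untreated and at 376 and 377 treated. It fell (log2 difference -0.27, SE 0.05, adjusted p = 0.0494 in limma), with 446 and 407 at 12.5 µg/ml.

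HSPA5, the ER HSP70 that holds the stress sensors inactive, was at 252 and 258 FPKM untreated and 229 and 217 treated (log2 difference -0.19, adjusted p = 0.21 in limma). PDIA4, a disulfide isomerase, was at 99.5 and 98.5 untreated and 88.5 and 89.3 treated (-0.15, adjusted p = 0.141 in limma). In both genes the groups were apart without passing the test. MANF, a secreted factor induced by ER stress, was at 170 and 176 untreated and 153 and 144 treated (-0.22, adjusted p = 0.274 in limma). XBP1, a transcription factor of the stress response, was at 38.5 and 42.5 untreated and 38.5 and 36.2 treated (-0.11, adjusted p = 0.538 in limma). SEL1L and EDEM1, of ER-associated degradation, were the 2 genes with both treated libraries above, by 0.05 and 0.02. Of 21 members found in the promoter table, 7 (33.3%) held the ERSE, against 0.166% of tested genes. As for the mitotic lists, this share describes the list rather than the response.

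Chaperones of the cytosol gave 1 call among 20 in limma, with a median of -0.022. CHORDC1, a co-chaperone of HSP90, fell from 59.9 and 63.1 FPKM to 48.0 and 49.7, or by 20.5% (log2 difference -0.33, adjusted p = 0.0494 in limma). HSPA8, the constitutive HSP70, was at 2490 and 2491 untreated and 2324 and 2225 treated (-0.13, adjusted p = 0.474 in limma). The list of ATF4 targets and amino acid stress had 0 calls among 27, with 2 higher and 2 lower at an unadjusted p under 0.05, and a median of -0.023.

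Immediate early and activation genes, which T cells switch on within hours of receptor signalling, had no gene that rose or fell among 23 tested of 32 in limma. At an unadjusted p under 0.05, 6 had lower and 0 had higher values. In 14 both treated libraries lay below both untreated ones, with 0 above, against 26.1% and 23.4% of all genes tested. The list median was -0.139, with -0.083 in lane 4, -0.164 in lane 5 and -0.091 after the GC and length correction. That correction gave 1 lower and 0 higher calls among 23 genes of the list, against 63 lower and 29 higher of 10213 genes. IER3, an early response gene that restrains apoptosis, was at 3.40 and 3.31 FPKM untreated and 2.17 and 2.02 treated, with 3.60 and 3.36 at the lower dose. Its mean was 37.6% lower, a log2 difference of -0.49 with an adjusted p of 0.0999 in limma. ID1 and ID3, inhibitors of E proteins, also had lower values in both treated libraries. ID1 was at 21.8 and 23.5 untreated and 16.9 and 15.7 treated (-0.45, adjusted p = 0.0943 in limma). ID3 was at 33.7 and 32.1 untreated and 26.3 and 25.9 treated (-0.32, adjusted p = 0.124 in limma).

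JUNB, a partner in the AP-1 factor, was at 14.6 and 15.8 FPKM untreated and 12.7 and 11.8 treated (log2 difference -0.29, adjusted p = 0.225 in limma). JUN and JUND, 2 other AP-1 genes, had values below untreated at 6 h (-0.16 each), while at 24 h they rose by 0.57 and 0.52. MYC was at 185 and 185 untreated and 179 and 183 treated (-0.03, adjusted p = 0.839 in limma); the sign of this difference turned with the correction for GC content and length. FOS and EGR1 to EGR3 stayed below an FPKM of 1 in all 4 libraries. The proximal T cell receptor signalling list had 0 calls among 30 in limma, 1 lower and 0 higher at an unadjusted p under 0.05, and a median of -0.004.

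Genes that NOTCH regulates in T cell leukaemia gave 0 calls among 15 in limma, with 1 higher and 3 lower at an unadjusted p under 0.05. The list median was 0.024, and 9 of the 15 were above 0. Both treated libraries lay above both untreated ones in 6 and below them in 5, against 23.4% and 26.1% of all genes tested. Among the lower ones, PTCRA, the invariant pre-T cell receptor chain, was at 7.49 and 8.14 FPKM untreated and 5.11 and 5.59 treated (log2 difference -0.47, adjusted p = 0.145 in limma). HES1, a NOTCH target, was at 8.91 and 9.04 untreated and 7.48 and 7.46 treated (-0.24, adjusted p = 0.318 in limma). The receptor genes NOTCH1 and NOTCH2 differed by 0.08 and 0.11, neither past the test.

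**Figure D3:**
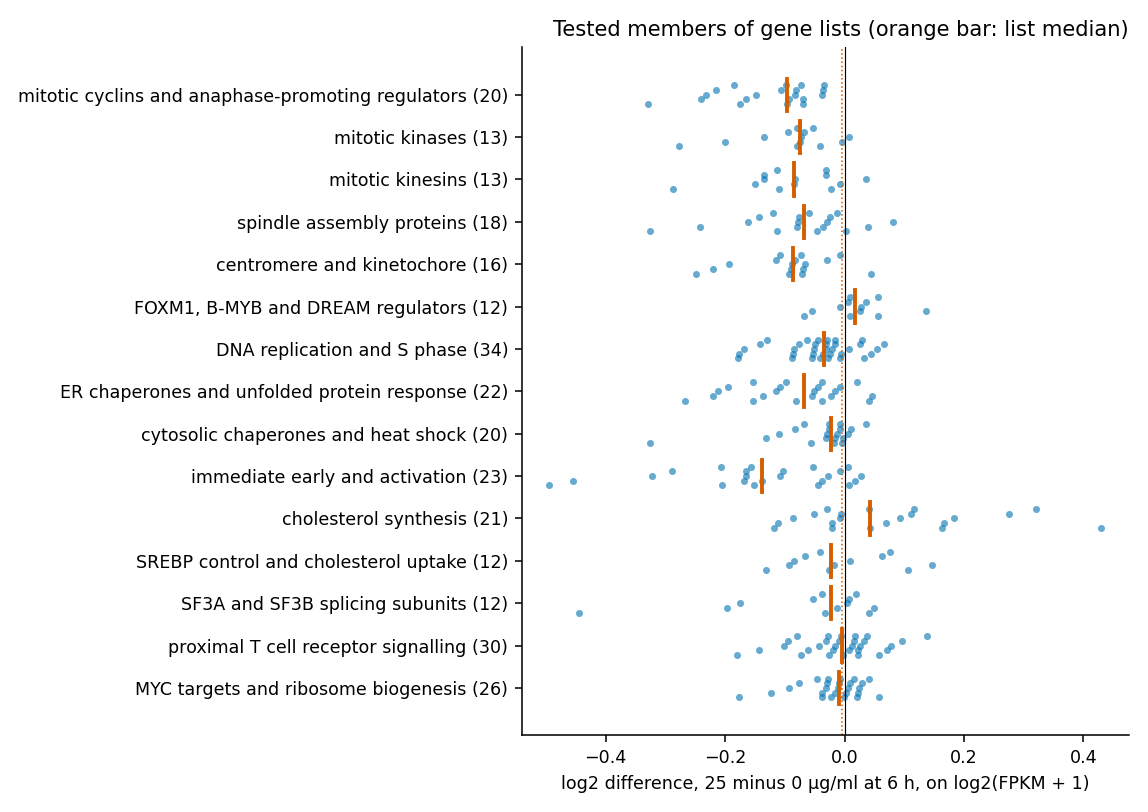
Log2 difference between 25 and 0 µg/ml at 6 h for each tested member of 15 gene lists (points), with the list median (orange bar), the number tested in brackets and the median of all genes tested (dotted line, -0.005). Members of the 5 mitotic lists, the ER list and the immediate early list lie mostly left of 0, and those of the cholesterol synthesis list spread further to the right.

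Of 21 tested enzymes of cholesterol synthesis, 1 rose (HMGCS1) and 0 fell in limma, and at an unadjusted p under 0.05 there were 7 higher and 0 lower. Both treated libraries lay above both untreated ones in 10 enzymes and below them in 5, against 23.4% and 26.1% of all genes tested. The number below was thus near the share over all genes. After the GC and length correction 4 of 19 enzymes passed, all higher, MSMO1 and HSD17B7 among them (adjusted p = 0.0217 and 0.0466 in limma). Over all 10213 genes with that correction, 29 were called higher and 63 lower. The median was 0.043, with 0.057 in lane 4 and 0.063 in lane 5. HMGCS1, which makes HMG-CoA, was at 75.4 and 75.1 FPKM untreated and 96.5 and 91.9 treated, with 87.3 and 82.8 at 12.5 µg/ml. It rose by 25.2% (log2 difference 0.32, SE 0.04, adjusted p = 0.0169 in limma), and no treated library overlapped an untreated one.

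In pathway order, ACAT2, which supplies the acetoacetyl-CoA, differed by 0.04. The mevalonate enzymes MVK, PMVK and MVD differed by -0.02, -0.09 and -0.12, and the isoprenoid enzymes IDI1 and FDPS by 0.07 and -0.05. FDFT1 and SQLE, which commit carbon to sterols, differed by 0.11 and 0.12. The C4-demethylation enzyme MSMO1 was at 27.5 and 28.1 FPKM untreated and 34.1 and 33.6 treated (log2 difference 0.27, adjusted p = 0.125 in limma). HSD17B7, of the same step, was at 15.9 and 14.6 untreated and 22.9 and 19.1 treated (0.43, adjusted p = 0.113 in limma). DHCR7, a reductase late in the pathway, differed by 0.04.

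The control genes of the pathway had 0 calls among 12 in limma and 0 at an unadjusted p under 0.05 in either direction, with a median of -0.022. INSIG1, which retains SREBP in the ER, was at 80.1 and 80.5 FPKM untreated and 84.51 and 84.99 treated (log2 difference 0.08, adjusted p = 0.59 in limma). CCAAT matched 14 of the 16 cholesterol enzymes with a promoter window (87.5%), against 43.8% of tested genes, a share that again describes the list. The sterol element core CACCCCAC matched 0 of the 16, against 3.69% of tested genes, and no match says only that these letters are not in these windows.

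The list of SF3A and SF3B splicing subunits had 1 call among 12 in limma, SF3B3, and a median of -0.022. SF3B3, a scaffold of the U2 spliceosomal subunit SF3B, was at 58.8 and 58.9 FPKM untreated, 46.4 and 48.2 at 12.5 µg/ml and 43.0 and 43.0 at 25 µg/ml. It fell by 27.0% (log2 difference -0.44, SE 0.03, adjusted p = 0.000358 in limma). Its log2 difference was -0.44 in lane 4 and -0.45 in lane 5. The other 11 tested genes of its list did not pass the test: SF3B1, the subunit that binds the branch point, was at 174 and 177 untreated and 176 and 179 treated. U2AF2, which recognises the polypyrimidine tract, was at 152 and 152 untreated and 135 and 131 treated (-0.20, adjusted p = 0.124 in limma).

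SAFB, SAFB2 and SLTM make up the family of scaffold attachment factors, nuclear proteins that bind RNA and DNA, and all 3 fell; they were grouped after their values were seen. SAFB was at 112 and 110 FPKM untreated and 93.2 and 96.0 treated (log2 difference -0.23, adjusted p = 0.042 in limma). SAFB2 was at 47.6 and 48.3 untreated and 37.7 and 38.5 treated (-0.32, adjusted p = 0.0194 in limma). SLTM was at 74.6 and 76.0 untreated and 62.6 and 62.4 treated (-0.26, adjusted p = 0.0133 in limma). SAFB and SAFB2 are neighbours on opposite strands of chromosome 19 and start close together, so they do not count as independent genes. METTL3, the writer of N6-methyladenosine on RNA, fell by 16.3% from 38 and 40.7 to 32.6 and 33.3 (-0.25, adjusted p = 0.0458 in limma). With lane as a block METTL3 did not pass (adjusted p = 0.0523 in limma). CCAR1, a coactivator of apoptosis and transcription, fell by 17.9%, and RRP36, a ribosomal RNA processing factor, by 19.0%.

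PRMT10 (PRMT9 in RefSeq), an arginine methyltransferase known to modify the SF3B subunit SF3B2, showed the largest rise among the 7. It was at 9.36 and 9.57 FPKM untreated, 12.36 and 12.96 at 12.5 µg/ml and 13.8 and 14.6 at 25 µg/ml. It rose by 50.0% (log2 difference 0.54, SE 0.05, adjusted p = 0.0013 in limma). The other 10 tested members of the list of arginine methyltransferases did not pass the test and differed by -0.13 (CARM1) to 0.10 (FBXO11). FBXO11 was in the list as compiled, which does not show that it is such an enzyme. CARM1 was at -0.0682 after the GC and length correction and at -0.0851 without treated replicate 1. DHX9, an RNA helicase, rose from 180 and 176 to 211 and 209, or by 18.3% (0.24, adjusted p = 0.0337 in limma). THRAP3, a splicing and transcription cofactor, rose from 87.1 and 89.1 to 103 and 102 (0.22, adjusted p = 0.038 in limma). SUDS3, a subunit of the SIN3 histone deacetylase complex, rose by 18.5% (0.24, adjusted p = 0.038 in limma). KRCC1 and C1orf216, whose functions are little described, rose by 35.6% and 36.3%.

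Several of the remaining calls were weakly expressed or could not be separated from neighbours, since the counting was not stated to use strand. LOC100288842 had the largest fall, from 6.51 and 6.15 FPKM to 3.74 and 2.85 (log2 difference -0.78, adjusted p = 0.038 in limma). GPR17, a G protein-coupled receptor that overlaps LIMS2, was at 2.52 and 2.75 untreated and 1.15 and 1.66 treated (-0.60, adjusted p = 0.0494 in limma). DDTL fell from 11.5 and 11.2 to 7.80 and 7.17 (-0.54, adjusted p = 0.00827 in limma); it has a near-identical copy, DDT, which was at 47.0 and 44.2 untreated and 54.0 and 47.3 treated, so its reads may be divided between them. HYAL3 (-0.52) overlaps NAT6 (-0.20), ZDHHC24 (-0.40) overlaps BBS1 (-0.20), and C9orf100 (-0.30) overlaps CCDC107 (-0.14); the neighbour of each was not called. With lane as a block HYAL3 and ZDHHC24 did not pass (adjusted p = 0.0635 and 0.0505 in limma). METTL3 and KIF20A also overlap other genes, TOX4 and CDC23, which differed by 0.02 and -0.02. HSP90B1 overlaps MIR3652, listed at 1747 and 1735 FPKM untreated and 1462 and 1668 treated (-0.157, adjusted p = 0.773 in limma). PARP12, a mono-ADP-ribosyltransferase induced by interferon, fell by 22.2%, IFT27, an intraflagellar transport protein, by 18.4%, and LOC100505549 by 29.9%.

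The lower dose at 6 h gave 2 calls (0.0166%) against the same untreated libraries, SF3B3 (log2 difference -0.31) and PRMT10 (0.38). Neither was called at this dose without untreated replicate 1, without untreated replicate 2 or with only the 6 h libraries. After the GC and length correction SF3B3 was not called at this dose. PRMT10 had no GC and length values, so it was not tested under that correction. Since both doses share the untreated libraries, only their values can be set side by side. HMGCS1 differed by 0.17 at 12.5 and 0.32 at 25 µg/ml, and SLTM by -0.14 and -0.26. PLK1 differed by -0.01 and -0.28, IER3 by 0.04 and -0.49, and HSPA5 by 0.01 and -0.19. The median of the ER list was 0.009 at 12.5 µg/ml, and that of the immediate early list was -0.005. Tested directly, 25 against 12.5 µg/ml gave 0 calls in limma (0%), with 1967 genes at an unadjusted p under 0.05, in a comparison that holds replicate 1 of 12.5 µg/ml.

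At 24 h, in libraries not shared with 6 h, 25 µg/ml gave 1286 genes that rose (10.7%) and 692 that fell (5.75%) in limma. With each library centred on its median the split was 783 to 982, with quantile normalization 968 to 949, and with the correction for GC content and length it was 891 to 1053. Of the 30 genes called at 6 h, 20 were called with the same sign at 24 h, which is 66.7% of the 6 h calls and 1.01% of the 24 h calls. Both sets of calls take each gene's spread from the same fit, so their overlap is not one of independent tests. A single gene, ZDHHC24, was called with the opposite sign. The effect differed between the times in 399 genes (3.32%), 284 with a higher and 115 with a lower effect at 24 h, a split that became 147 to 133 with median centring, 204 to 175 with quantile normalization and 127 to 196 with the GC and length correction. All 24 h libraries ran in lane 4. With lane as a block over the 17 libraries 400 genes differed, 358 of them among the 399. The doses compared were spread alike over lanes at each time, so this block left each difference unchanged and altered only its spread. It could not show whether the dose effect itself differed by lane. Lane 4 alone holds 1 library of each 6 h group, and fewer genes differed there. Lane and lost replication cannot be told apart in that fit. Leaving out 1 library also moved the count: without either untreated 6 h library it was 26 and 13, without either treated 6 h library 62 and 6, without either untreated 24 h library 222 and 4, without either treated 24 h library 833 and 5 (replicates 1 and 2 each time), and without replicate 1 of 12.5 µg/ml at 6 h 1161.

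Of the 30 genes, 9 were among the 399. HMGCS1 rose further, from 0.32 at 6 h to 0.97 at 24 h. PLK1 reached -0.68, HMMR -0.80, KIF20A -0.66 and CHORDC1 -0.74. The other 4 did not keep their 6 h change: DDTL was at -0.05, LOC100288842 at 0.19, IFT27 at 0.11 and ZDHHC24 at 0.38 on the log2 scale at 24 h. SF3B3 and PRMT10 had differences at 24 h of -0.60 and 0.49, against -0.44 and 0.54 at 6 h. The change between times was -0.15 (SE 0.0464, adjusted p = 0.0952 in limma) for SF3B3 and -0.05 (adjusted p = 0.704 in limma) for PRMT10. The median over the 80 mitotic genes was -0.245 at 24 h, with 51 that fell and 1 that rose. That over cholesterol enzymes was 0.487, with 20 of 21 that rose. Of all genes tested, 10.7% rose and 5.75% fell at 24 h. The medians of the ER list and the immediate early list at 24 h were both -0.009. In 23 of the 80 mitotic genes and 11 of the 21 cholesterol enzymes the effect at 24 h differed from that at 6 h, against 3.32% of all genes tested. In the ER list it differed in 1 of 22, near the share over all genes.

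**Figure D4:**
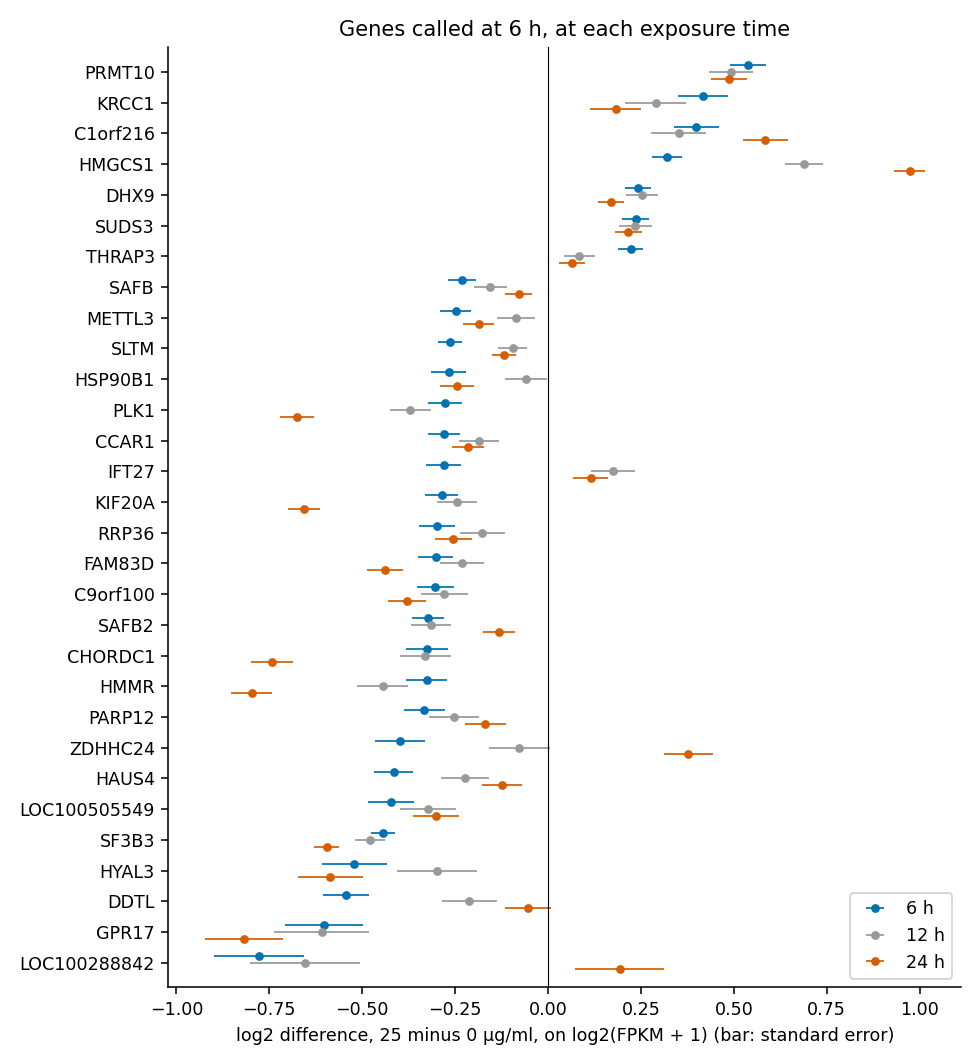
Log2 difference between 25 and 0 µg/ml at 6, 12 and 24 h for the 30 genes called at 6 h; bars are standard errors from the fit over 17 libraries, and the untreated 12 h group is a single library. HMGCS1, HMMR, KIF20A and PLK1 lie farther from 0 at 24 h than at 6 h, while DDTL is near 0 and LOC100288842 and IFT27 lie above it at 24 h.

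Among genes followed because of work on ILT3, ALCAM, an adhesion molecule, was at 5.15 and 5.38 FPKM untreated and 5.55 and 5.29 treated (log2 difference 0.04, adjusted p = 0.919 in limma). CD6, the T cell receptor of ALCAM, was at 8.48 and 9.03 untreated and 8.96 and 8.85 treated (0.02, adjusted p = 0.926 in limma). Both differences were below 0 in lane 5 alone. DUSP10, a phosphatase of stress kinases, was at 0.801 and 1.03 untreated and 0.981 and 1.22 treated (0.13, adjusted p = 0.744 in limma). Leaving out 1 of these 4 libraries gave 0.0436 to 0.22. BCL6 and SOCS1 had mean values under 1 and were not tested.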

How the data were processed

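The authors deposited 1 table of FPKM values with a column per library. TopHat2 2.1.0 is named in the submitters' processing notes. Which quantifier, build and annotation made the values is not given in the sources used here. Per the labels, RNA came from RNeasy Mini columns and a TruSeq RNA kit selected poly(A) transcripts. Where a symbol occurred more than once (45 extra lines), its most abundant line was used, and a listed 0 may stand for an estimate that failed.

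On log2(FPKM + 1), all 17 libraries entered a single limma fit (version 3.58.1, R 4.3.3) with a mean per dose and time (9 groups), with 8 residual degrees of freedom and a mean-variance trend. Two-sided tests were run, with Benjamini-Hochberg adjustment over 12034 genes, and called genes are those with an adjusted value under 0.05. The lone untreated 12 h library was assumed to vary like the other groups. The calling step was run on simulated data with independent normal errors and the same spread per gene in every group. The duplicates differed in spread between groups, from a median absolute deviation of 0.076 to 0.194. That run therefore does not show how reliable the calls are. Replicate numbers at 6 h mark the sequencing lane, as the labels' descriptions show, so lane is the pairing; same-numbered libraries did not deviate together (correlations of -0.049, -0.078 and -0.052). The tests reported used no block.

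Libraries entered by their labels, but the comparison was singled out, and the gene lists chosen, with earlier results of these data known. Genes named were all 30 called, up to 3 members per list with the smallest p, up to 4 rising and 4 falling genes of each other comparison, and candidates; other list members named were chosen after their values were seen. Lists are described by counts and medians, and some of their members are not reported here. GENCODE v29 gave GC content and length, by symbol, for 10213 genes (84.9%), 26 of the 30 called among them, and for the correction both were regressed out by loess (span 0.3). Promoters came from RefSeq (GRCh38.p14), and motifs were searched on both strands.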

Additional observations from a re-analysis of the deposited data

Results flagged for a closer look

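For the genes named here, a test of the difference between the effects of 25 µg/ml at 24 h and at 6 h (limma, adjusted p under 0.05) marked those whose response changed with time; values are the 24 h effect minus the 6 h effect on the log2 scale. Among genes called at 6 h, they were HMGCS1 (0.65), HMMR (-0.47), CHORDC1 (-0.42), PLK1 (-0.40), KIF20A (-0.37), IFT27 (0.40), DDTL (0.49), ZDHHC24 (0.78) and LOC100288842 (0.97). Of mitotic list members, KIF4A (-0.36), CENPA (-0.30), TPX2 (-0.27) and BUB1B (-0.25) had a lower effect at 24 h. Sterol genes with a higher effect at 24 h were MSMO1 (0.47) and INSIG1 (0.35). Other list members were the glycolytic ALDOC (0.66), the G1 cyclin CCND3 (0.39), the T cell adaptor LAT (0.38), the lysosomal CTSA (0.35) and the ER isomerase PDIA4 (0.33). The 4 genes with the largest differences in each direction included, besides LOC100288842, PLAC8L1 (1.35), C6orf223 (0.95) and TNFSF9 (0.90) with a higher effect, and RN5S3 (-3.49), DOC2GP (-1.04), GPR75-ASB3 (-0.86) and HCG27 (-0.64) with a lower one. RN5S3 was at 4.57 and 18.6 FPKM in the untreated 6 h libraries and at 12.0 and 8.06 in the treated ones; at 24 h it was at 7.70 and 12.4 untreated and listed at 0 in both treated libraries, where a listed 0 may be a failed estimate. DOC2GP was at 1.24 and 1.28 untreated at 24 h, and in the treated libraries it was listed at 0 and at 0.223. How many genes differ between the times rests on single libraries, as given under the processing.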

How the results depend on the processing

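The 30 calls for 25 against 0 µg/ml at 6 h became 12 with median centring, 9 without the variance trend, 14 in lane 4 alone and 8 in lane 5 alone (0 of the 30 in either), 1 with only the groups compared (not among the 30; 1880 genes at an unadjusted p under 0.05), 0 with only the 6 h libraries (776 unadjusted) and 0 with the replicate block in those libraries (716 unadjusted). They became 92 after the GC and length correction and 84 with that correction and the replicate block. Leaving out 1 library gave 3 to 90, the lowest without untreated replicate 1 and the highest without replicate 1 of 12.5 µg/ml; without untreated replicate 2, treated replicate 1 and treated replicate 2 it was 7, 7 and 4. With lane as the replicate block over 17 libraries 29 genes were called, 27 of them shared. HYAL3, METTL3 and ZDHHC24 were lost (adjusted p = 0.0635, 0.0523 and 0.0505 in limma), and the block changed no other call among the genes named. Each dose had 1 library per lane, so the block left the differences unchanged and altered only their spread. The other filters, the pseudocount and quantile normalization kept the count within 1.5 times, but not always the genes: 16 of the 30 were among the 25 called without the filter, and 17 of the 30 among the 20 called with quantile normalization.

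For 12.5 against 0 µg/ml the 2 calls became 8 without the filter, 198 in lane 4 alone, 12 in lane 5 alone, and 0 with the 6 h replicate block or the GC and length correction, with or without the block; leaving out 1 library gave 1 to 2172, the highest without replicate 2 of 12.5 µg/ml. For 25 against 12.5 µg/ml the 0 calls became 2 without the filter, 1 with the filter over 17 libraries, 6 with only the groups compared, 1 with only the 6 h libraries, 295 in lane 4 alone and 14 in lane 5 alone; leaving out 1 library gave 0 to 3468, the highest without the same library. For the effect at 24 h minus that at 6 h the 399 became 236 without the filter, 163 with only the groups compared and 16 in lane 4 alone; leaving out 1 library gave 4 to 1161, the lowest without untreated 24 h replicate 2 and the highest without replicate 1 of 12.5 µg/ml at 6 h. That difference could not be fitted in lane 5 or in the 6 h libraries. With lane as a block over 17 libraries it was called in 400 genes, 358 of them among the 399, with each difference unchanged and only its spread altered. The cause of these changes was not tested. Leaving out 1 library of a pair leaves that group with 1 library and no spread of its own. Where that group is not part of the comparison, such counts do not show which duplicate lay behind a change. Where it is, its mean also becomes the value of the library kept. Replicate 1 of 12.5 µg/ml at 6 h had an FPKM sum of 557389, against 511763 in replicate 2. Whether this lay behind the counts was not tested. Of the 12.5 µg/ml pair at 6 h, only replicate 1 was left out for 25 against 0 µg/ml and for 24 h minus 6 h.

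The difference changed sign in 6 genes, not all of them near 0. Over all 17 libraries HIST2H2AA3 was at -0.289. RN5S3 was at 0.0531 there, with 1.22 in lane 4 alone. ALCAM was -0.0214 in lane 5 alone and -0.00332 after the GC and length correction, with or without the block. CD6 was -0.0261 in lane 5 alone and -0.0178 to 0.0633 when 1 library was left out, and MYC was 0.00812 after the correction with or without the block. DOC2GP was -0.00376 with quantile normalization, -0.145 in lane 4 alone and -0.133 to 0.147 when 1 library was left out, below 0 without replicate 2 of either group. RN5S3 was -1.12 in lane 5 alone, -0.856 to 0.963 when 1 library was left out, below 0 without replicate 1 of either group (-0.209 without the treated one), and HIST2H2AA3 was 0.195 in lane 4 alone. FPKM keeps no counts, so the depth behind low values, and the precision it gives, is unknown.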

Other observations

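A set of 24 genes outside the 30 was called both after the GC and length correction and without replicate 1 of 12.5 µg/ml at 6 h, 9 with higher and 15 with lower values at 25 µg/ml; they were chosen after their values were seen, and none passed the test in all 17 libraries without correction. RPS6KB1, the S6 kinase of the mTORC1 pathway, was at 18.5 and 18.4 FPKM untreated and 22.8 and 23.4 treated (log2 difference 0.31, adjusted p = 0.081 in limma over all 17 libraries, 0.0201 corrected and 0.0402 without that library). The whole mTORC1 list had 0 calls among 19 in limma over all libraries and a median of -0.03, with 14 of 19 below 0. Both treated libraries lay below both untreated ones in 7 and above them in 4, against 26.1% and 23.4% of all genes tested. TSC1, which restrains the same pathway, was at 11.8 and 11.6 untreated and 13.4 and 13.8 treated (0.20, adjusted p = 0.292, 0.0296 and 0.0408 in limma). The cold-induced RNA-binding gene RBM3 was at 121 and 122 untreated and 136 and 136 treated (0.16, adjusted p = 0.273, 0.0359 and 0.0394 in limma).

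Among the 15 with lower values, CDC20 and UBE2C had adjusted p of 0.0204 and 0.0246 corrected and 0.0362 and 0.0303 without that library in limma. ID3 (0.016 and 0.0288 in limma) and PTCRA (0.0429 and 0.0442 in limma) also passed under both. NDUFS1, a subunit of respiratory complex I, was at 45.6 and 45.7 FPKM untreated and 40.2 and 39.4 treated (log2 difference -0.19, adjusted p = 0.162 in limma over all libraries). SLC20A1, a phosphate transporter, was at 65.1 and 66.1 untreated and 58.2 and 58.9 treated (-0.16, adjusted p = 0.107 in limma over all libraries). In these genes the treated libraries lay apart from the untreated ones in both lanes. They were chosen for passing the test in these same libraries, so this separation adds no support. Effects over all genes followed GC content and length (Spearman correlations of -0.338 and 0.285 across 10213 genes, which are not independent), and their part in single results was tested only by that correction.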
